A study of Mus musculus with 3 samples.

Results

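The transcripts described here are those of insulin-like growth factor 1 (Igf1), insulin-like growth factor 2 (Igf2) and 6 IGF binding proteins (Igfbp2, Igfbp3, Igfbp4, Igfbp5, Igfbp6 and Igfbp7), 8 of the 51912 genes counted, picked by their symbols. They were followed across lymph node stromal cells of C57BL/6 mice whose Cxcl13-expressing cells carry the red protein TdTomato through a Cre driven by Cxcl13. Live cells positive for TdTomato and podoplanin and negative for CD31 and CD45 were sorted and sequenced with the 10x Genomics 3' v3 kit. Mice of the 2-IC group received 2 antigen immune complexes (ICs), 7 days and 24 h before analysis (2 libraries), and mice of the 1-IC group received 1 IC 24 h before (1 library). All groups were immunized, lymph nodes of several mice were pooled, and the age of the mice was not given in the sources used here. The sort selected cells marked by the Cxcl13 reporter, but barcodes of B cells and other contaminants were recovered with them.

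Each cell was placed by its raw UMI counts of 5 genes, where a UMI (unique molecular identifier) stands for a captured transcript. Cells with Cr2, the complement receptor that holds immune complexes on follicular dendritic cells (FDCs), formed the FDC gate if Malat1 made up at least 1% of their UMIs (167 cells) and the Cr2-positive low-Malat1 gate if it made up less (63 cells). Madcam1 without Cr2 marked marginal reticular cells (MRCs, 83 cells), which line the outer follicle, and Tnfsf11 without the other gate genes marked interfollicular reticular cells (IFRCs, 162 cells). The study's flow cytometry gated FDCs as positive for Madcam1 too. The MRC gate may therefore hold FDCs without a captured Cr2 UMI, and their part in it was not tested. Fmod marked T-B border reticular cells (TBRCs, 100 cells) and Inmt marked medullary reticular cells (MedRCs, 633 cells). A further 587 cells held 2 or more of Tnfsf11, Fmod and Inmt (double-gated) and 448 held no gate gene (ungated), and both were left out of the tests. Levels are UMIs per 1000000 UMIs (CPM, for counts on that scale) summed over the cells of a gate in a library, and values in a row are always in the order 2-IC replicate 1, 2-IC replicate 2, 1-IC.

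IGF1 is a small secreted hormone that binds the receptor IGF1R on the cell surface and drives growth and survival through the IRS, PI3K and AKT relay. In blood and tissue nearly all of it is carried by IGF binding proteins, which hold the ligand away from its receptor until a protease cuts them. IGFBP4 and IGFBP5 are substrates of the protease PAPP-A (gene Pappa), which the stanniocalcins STC1 and STC2 inhibit. IGFBP3 and IGFBP5 can also join IGF and the acid-labile subunit (gene Igfals) in a larger complex. IGFBP7 binds IGFs weakly and is deposited in the extracellular matrix. Fibroblasts and reticular cells are a common local source of these proteins.

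In GRCm38 (GENCODE M21 annotation), Igf1 lies at chr10:87858265-87937042 on the plus strand, Igfbp3 at chr11:7206086-7213923 on the minus strand and Igfbp4 at chr11:99041244-99054392 on the plus strand. Igfbp2 (chr1:72824503-72852474, plus) and Igfbp5 (chr1:72857932-72874884, minus) are neighbours on chromosome 1 that face each other with their 3' ends, and Igfbp7 is at chr5:77349240-77408041 on the minus strand. No annotated gene overlaps Igfbp2, Igfbp3, Igfbp4 or Igfbp5. Igf1 overlaps the antisense gene Igf1os, and Igfbp7 overlaps Polr2b on the other strand. Igf2 (chr7:142650766-142666816, minus) overlaps Igf2os, Mir483 and Gm49394, and Igfbp6 (chr15:102144362-102149511, plus) overlaps no gene.

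The promoters of the binding proteins that carried nearly all UMIs are shown because these genes shared some patterns across gates and not others. Each is the 100 bases before the RefSeq start (GRCm38.p6), written on the strand of the gene, at chr11:7213924-7214023 for Igfbp3, chr11:99041144-99041243 for Igfbp4, chr1:72874866-72874965 for Igfbp5 and chr5:77408046-77408145 for Igfbp7, and capitals mark a TATAAA or GGGCGG match on either strand.
Igfbp3: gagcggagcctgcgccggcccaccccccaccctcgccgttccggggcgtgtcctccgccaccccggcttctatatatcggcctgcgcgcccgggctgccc
Igfbp4: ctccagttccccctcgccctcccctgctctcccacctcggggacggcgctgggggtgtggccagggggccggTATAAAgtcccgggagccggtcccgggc
Igfbp5: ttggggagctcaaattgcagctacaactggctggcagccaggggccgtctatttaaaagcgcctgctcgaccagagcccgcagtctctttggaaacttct
Igfbp7: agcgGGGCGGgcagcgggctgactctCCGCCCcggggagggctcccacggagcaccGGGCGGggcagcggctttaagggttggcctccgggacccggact
Igfbp4 held a TATAAA match whose first base is 28 bases before the start, a motif found in this window in 5.56% of 32851 RefSeq promoters. Igfbp7 held 3 GGGCGG matches, a motif found in 24.7% of these promoters. The AP-1 motif TGANTCA, on either strand, was in none of these 4 windows and in 2.73% of all promoters. Among the members not shown, it was in the window of Igf1 and in that of 1 Igfbp2 promoter. The first bases of these matches are 37 and 39 bases before the start. GC made up 77% of the window in Igfbp3 and Igfbp7, 75% in Igfbp4 and 55% in Igfbp5, so Igfbp5 had the fewest G and C bases of the 4 windows.

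The libraries held 20607903, 12788101 and 3766526 UMIs and kept 1526, 391 and 326 cells, with median depths of 4700.5, 14732 and 5979 UMIs per cell. The 2-IC libraries shared 76 barcodes, of which 15 were retained, and at most 2 shared barcodes were found between any other pair. The FDC, TBRC and MedRC gates were checked against 7, 3 and 4 markers of their names, the gate genes included. FDC markers summed to 28387 to 77706 CPM in the FDC gate and overlapped with MRCs (28979 to 45805 CPM, with Cr2 at 0 by the gate), but not with IFRCs (10925 to 26398 CPM), TBRCs (at most 10943 CPM) or MedRCs (at most 8019 CPM). TBRC markers summed to 11887 to 21275 CPM in TBRCs and at most 10376 CPM in the other types, and MedRC markers to 9168 to 11517 CPM in MedRCs and at most 7944 CPM in the other types. By the gates, Fmod was at 0 in IFRCs and MedRCs, and Inmt at 0 in IFRCs and TBRCs. Part of this separation was therefore set in advance, and sums without the gate genes are not given. The MRC and IFRC lists did not set their gates apart either: MRC markers were at 16227 to 27318 CPM in MRCs and 17866 to 53313 CPM in FDCs, and IFRC markers at 2105 to 2875 CPM in IFRCs and 2376 to 4573 CPM in TBRCs. The Cr2-positive low-Malat1 gate had less RNA of 6 general reticular genes (109 to 2025 CPM, against 1165 to 3621 CPM in FDCs) and more of 5 B cell genes (886 to 2898 CPM, against 523 to 1015 CPM). An adventitial fibroblast list (Pi16, Dpp4, Cd34, Ly6a, Dpt) was at 820 to 1039 CPM in TBRCs and 878 to 983 CPM in MedRCs, against 0 to 394 CPM in FDCs, MRCs and IFRCs, with Pi16 at 0 in all of these types but MedRCs. The part of such cells in the results was not tested.

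Igf1, Igfbp3, Igfbp4, Igfbp5 and Igfbp7 were expressed in every stromal type, and 4 of them had their highest means in MedRCs and TBRCs. Igfbp7 was the most frequent transcript of the family by 3' UMI counts, which do not scale with transcript length, with 1686 ± 325 CPM in FDCs and 4798 ± 1248 CPM in MedRCs (SD, n = 3). Igfbp4 was at 469 ± 248 CPM in FDCs and 1366 ± 137 CPM in MedRCs, whereas Igfbp5 was at 924 ± 264 CPM in FDCs and 800.2 ± 81.1 CPM in MedRCs. Barcodes of B cells, a lineage that should lack these transcripts, held 5.20 ± 0.26 CPM of Igf1, 34.3 ± 25.8 CPM of Igfbp4 and 86.7 ± 59.8 CPM of Igfbp7.

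**Figure D1:**
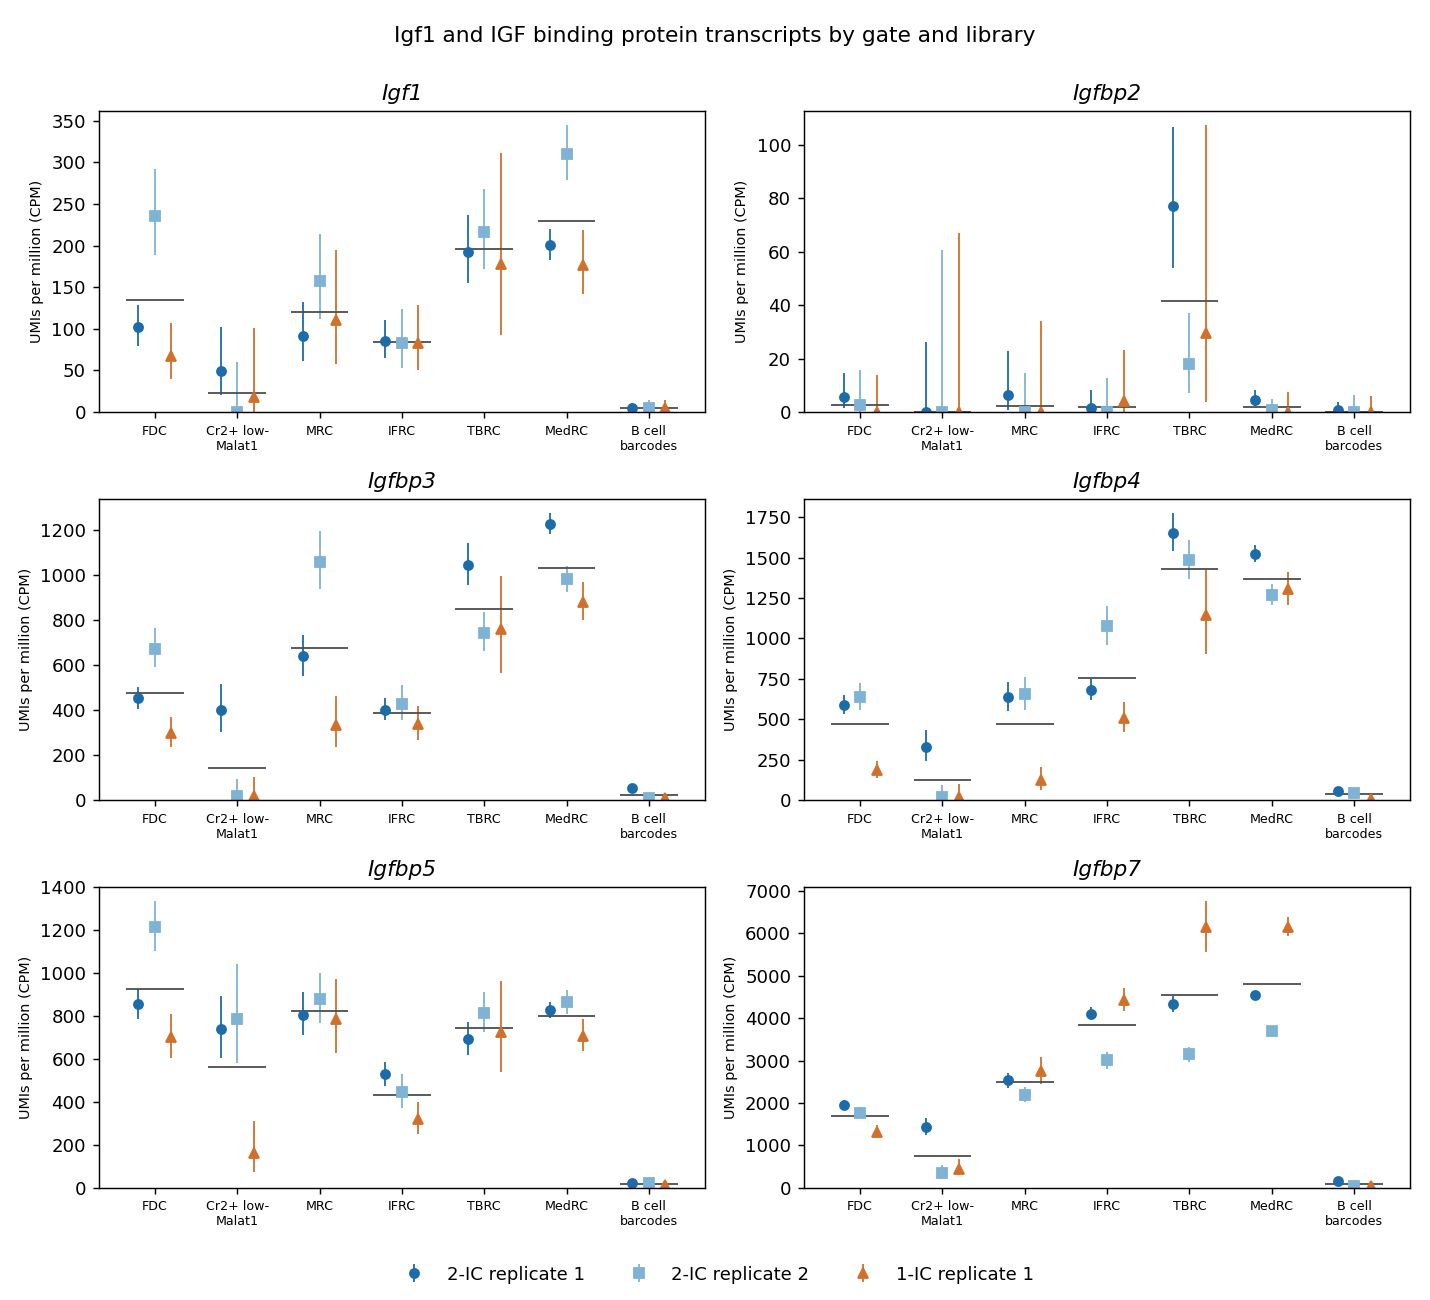
Level of Igf1, Igfbp2, Igfbp3, Igfbp4, Igfbp5 and Igfbp7 in CPM (vertical axes from 0) in each gate and in B cell barcodes (horizontal axis). Points are libraries with exact Poisson 95% intervals for counting error, and grey lines are means over the 3 libraries. Igfbp4 and Igfbp7 have their highest means in TBRCs and MedRCs, and Igfbp5 is lowest among the 5 types in IFRCs.

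Counts were summed per library and gate, and each type was compared with the mean of the other 4 types in one edgeR quasi-likelihood fit with the library as a block, over 6002 genes. Only Igf1, Igfbp3, Igfbp4, Igfbp5 and Igfbp7, 5 of the 8 members, passed the filter on low counts. MedRCs differed from the other types by higher levels of 4 of the 5 tested members, where 13.1% of all genes were called. DESeq2 called 1 member in MedRCs, and edgeR called 1 without the 1-IC library and 0 without the library block. Over the 13 alternative settings these calls were made in 12 (Igf1), 10 (Igfbp3), 9 (Igfbp4) and 9 (Igfbp7). FDCs had 2 members called, both lower (15.4% of all genes called), TBRCs 1 member, higher (3.08%), and IFRCs 1 member, lower (0.5%). In MRCs edgeR called none of the 5 (2.12% of all genes called), with 2 at an unadjusted p under 0.05, and DESeq2 called none. The median log2 fold change of the 5 tested members was 0.93 in MedRCs and -0.54 in FDCs, against 0.007 and 0.003 over all genes. Of the 11 member calls in these comparisons and in that of low-Malat1 cells with FDCs, 6 were also made by DESeq2, 8 with cells thinned to 2000 UMIs, 4 with no contaminant filter and 3 without the 1-IC library. Without the library block, which takes up differences shared by all gates of a suspension, 1 was made, that of Igf1 in Cr2-positive low-Malat1 cells.

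**Figure D2:**
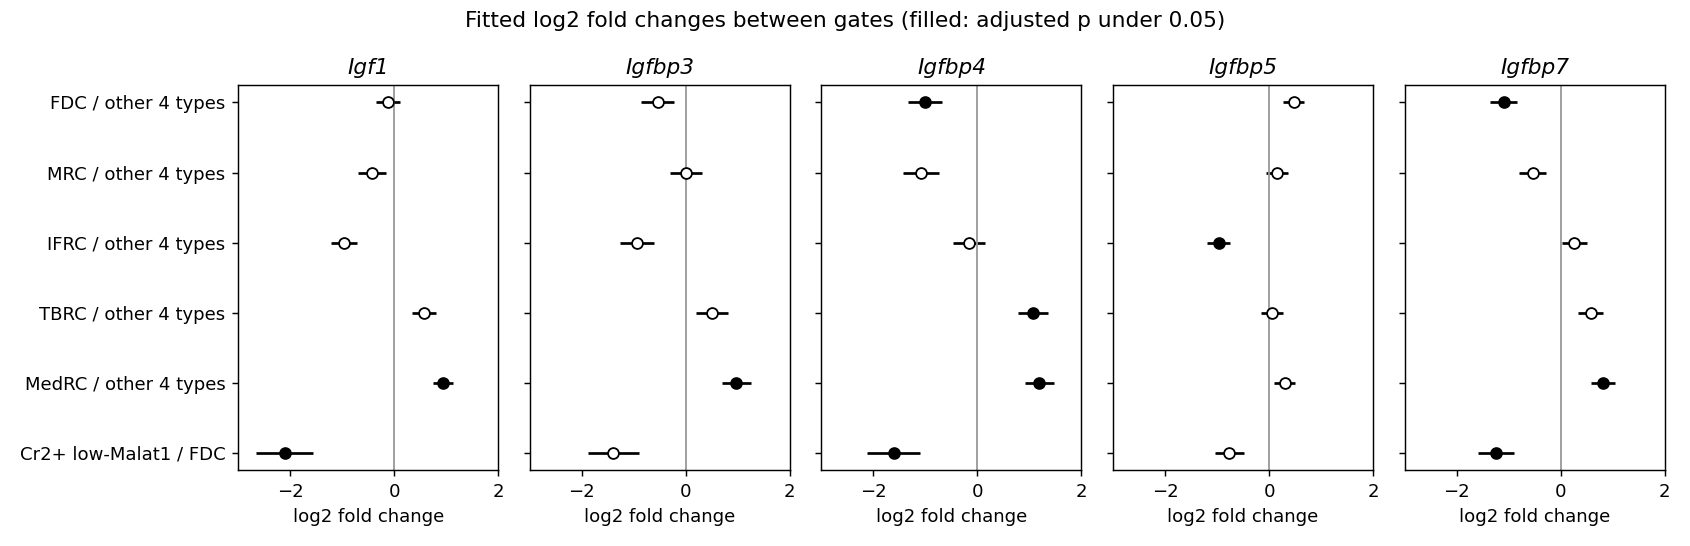
Fitted log2 fold changes (horizontal axes, dots, bars are the standard error) of the 5 tested members for each type against the other 4 types, and for Cr2-positive low-Malat1 cells against FDCs. Filled dots have an edgeR adjusted p under 0.05, and 4 of the 5 members have a filled dot to the right of 0 in MedRCs.

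Between pairs of types, the share of all genes called set the scale for the members. It was 22.2% between FDCs and MedRCs, where 4 members were lower in FDCs, and 14.3% between FDCs and TBRCs, where Igfbp4 and Igfbp7 were lower in FDCs. Between FDCs and IFRCs (10.1% of genes) Igfbp5 was higher and Igfbp7 lower in FDCs. Between MRCs and MedRCs (10.5%) Igf1, Igfbp4 and Igfbp7 were lower in MRCs, and between MRCs and TBRCs (4.62%) only Igfbp4 was called, lower in MRCs. Between IFRCs and MedRCs (4.48%) Igf1, Igfbp3 and Igfbp5 were lower in IFRCs, and between IFRCs and TBRCs (1.15%) Igf1 was. No member was called by edgeR or DESeq2 between FDCs and MRCs (3.15%), MRCs and IFRCs (0.367%) or TBRCs and MedRCs (1.68%), and the numbers at an unadjusted p under 0.05 were 0, 1 and 0. Of these 16 pairwise member calls, 13 were also made by DESeq2, 6 without the 1-IC library and 1 without the library block.

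Igf1, the ligand, had its highest mean in MedRCs. It stood at 201, 310.45 and 177 CPM in MedRCs, and at 193, 216 and 178 CPM in TBRCs. The level was 92.0, 157 and 111 CPM in MRCs and 85.1, 83.3 and 83.0 CPM in IFRCs, so that every library of IFRCs lay below every library of TBRCs and MedRCs. FDCs had the largest SD of the 5 types, with 102, 236 and 67.6 CPM, and overlapped with all other types. Igf1 was 0.93 ± 0.19 higher on the log2 scale in MedRCs than in the mean of the other types (± SE, adjusted p = 0.00126, edgeR), higher in 3 of 3 libraries. This call was made in 12 of 13 alternative settings. In TBRCs Igf1 differed by 0.57 (adjusted p = 0.206), and by 0.85 without 2-IC replicate 2 (adjusted p = 0.0475). The order of means was MedRC, TBRC, FDC, MRC and IFRC, and no pair of neighbours in it was called different.

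Igf2, the second ligand, was close to absent. Over all 6 gates and 3 libraries it had 10 UMIs, 8 of them in MedRCs of the 2-IC libraries and 2 in TBRCs of 2-IC replicate 2, and none in FDCs, MRCs, IFRCs or Cr2-positive low-Malat1 cells. A count of 0 in FDCs of 2-IC replicate 1 allows a level of up to 4.26 CPM.

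Igfbp4, which blocks IGF signalling until it is cut, had the largest called pairwise difference of the tested members, a log2 fold change of -1.82 between MRCs and MedRCs (adjusted p = 0.00341, edgeR). Without the 1-IC library, whose MRCs held 13 Igfbp4 UMIs, it was -1.20 and not called (adjusted p = 0.061). FDCs had 589, 635 and 184 CPM and MRCs had 635, 653 and 120.5 CPM. IFRCs had 682, 1075.5 and 506 CPM. TBRCs reached 1654, 1484 and 1143 CPM and MedRCs 1523, 1268 and 1307 CPM, and no library of these types overlapped with one of the other 3 types. Igfbp4 was lower in FDCs than in the other types, with a log2 fold change of -1.02 ± 0.33 (adjusted p = 0.0339, edgeR) and higher in MedRCs by 1.19 ± 0.28 (adjusted p = 0.00466) and in TBRCs by 1.07 ± 0.29 (adjusted p = 0.0433), each in 3 of 3 libraries. In MRCs the difference was -1.09 ± 0.34 and missed the threshold (adjusted p = 0.112), in 3 of 3 libraries, and was -1.26 without 2-IC replicate 1 (adjusted p = 0.047). Without the 1-IC library the Igfbp4 differences were -0.77, 0.76 and 0.96 in FDCs, MedRCs and TBRCs and were not called (adjusted p = 0.135, 0.102 and 0.0756), and the call in TBRCs was also lost without 2-IC replicate 1 (adjusted p = 0.0586). The order of means was TBRC, MedRC, IFRC and then FDC and MRC at equal means, and no neighbours in it were called different.

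Igfbp3, the main carrier of IGFs in blood, had 1228, 981 and 880.2 CPM in MedRCs and 1043, 743 and 757 CPM in TBRCs. FDCs had 451, 671 and 297 CPM and IFRCs 402, 427 and 336 CPM, so that MedRCs lay above both in every library. MRCs spread from 334 CPM in the 1-IC library to 638 and 1058 CPM in the 2-IC libraries and overlapped with every other type. The difference of MedRCs from the other types was 0.97 ± 0.28 on the log2 scale (adjusted p = 0.0191, edgeR), higher in 3 of 3 libraries. It was 0.82 without the 1-IC library (adjusted p = 0.127). The order of means was MedRC, TBRC, MRC, FDC and IFRC, and neighbours in it were not called different.

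Igfbp7 had the lowest mean in FDCs. The means were 1686 ± 325 CPM in FDCs, 2497 ± 285 CPM in MRCs, 3846 ± 747 CPM in IFRCs, 4540.1 ± 1512 CPM in TBRCs and 4798 ± 1248 CPM in MedRCs. By library, FDCs had 1959, 1773 and 1326 CPM, MRCs 2535, 2195.5 and 2761.5 CPM and MedRCs 4543, 3697 and 6153 CPM, without overlap among the 3 types. Igfbp7 was lower in FDCs than in the other types with a log2 fold change of -1.10 ± 0.27 (adjusted p = 0.00438, edgeR) and higher in MedRCs by 0.80 ± 0.23 (adjusted p = 0.0197), each in 3 of 3 libraries. Without the 1-IC library these were -0.81 (adjusted p = 0.0564) and 0.63 (adjusted p = 0.128). No pair of neighbours in the order was called different.

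Igfbp5, the most conserved of the family and a PAPP-A substrate that also binds matrix, was lowest in IFRCs and not in the follicular types. Its levels were 854, 1216 and 703 CPM in FDCs, 806, 877 and 788 CPM in MRCs, 694, 815 and 728 CPM in TBRCs and 827, 865 and 709 CPM in MedRCs, with overlapping ranges. IFRCs had 529, 444 and 319 CPM and lay below every library of the other 4 types. Igfbp5 was lower in IFRCs than in the other types, with a log2 fold change of -0.97 ± 0.22 (adjusted p = 0.04, edgeR), in 3 of 3 libraries, and this call was lost on leaving out any 1 of the 3 libraries (adjusted p = 0.0502, 0.198 and 0.102, in library order). The direct difference between FDCs and IFRCs was 1.15 ± 0.26 (adjusted p = 0.00346). It was 0.95 without 2-IC replicate 2 (adjusted p = 0.0647), where a single FDC held 161 of 433 Igfbp5 UMIs, 0.73 with cells thinned to 2000 UMIs (adjusted p = 0.0925) and 0.53 with no contaminant filter (adjusted p = 0.247). In FDCs Igfbp5 differed from the other types by 0.47 (adjusted p = 0.109), and by 0.54 without the 1-IC library (adjusted p = 0.0488). No neighbours in the order FDC, MRC, MedRC, TBRC and IFRC were called different.

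Igfbp2 and Igfbp6 were too rare to be tested. Igfbp2 had 65 UMIs over the 6 gates, of which 45 were in TBRCs. Its level in TBRCs was 77.1, 18.0 and 29.7 CPM from 36, 7 and 2 UMIs in the 3 libraries, and at most 6.35 CPM in any library of the other gates. Without thinning, a UMI of Igfbp2 was found in 13 of 69, 3 of 21 and 2 of 10 TBRCs (17.7 ± 3.02%). In B cell barcodes, which were less deep, it was found in 1 of 316, 0 of 73 and 0 of 164. With cells thinned to equal depth, it was found in 9 of 66, 0 of 19 and 1 of 10 TBRCs (7.88 ± 7.06%). The thinned B cell barcodes held it in 1 of 261, 0 of 71 and 0 of 154. Among the other gates the highest thinned share was 1 of 28, in IFRCs of the 1-IC library. In 2-IC replicate 1, 7 TBRCs held 80.6% of the Igfbp2 UMIs of TBRCs. Igfbp6 had 33 UMIs over the gates, none of them in TBRCs, and was at 9.24, 0 and 10.3 CPM in MedRCs.

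The make-up of the binding protein pool is given as a description, with no test. The 6 binding proteins together were 0.356 ± 0.0933% of all UMIs in FDCs, 0.447 ± 0.0413% in MRCs, 0.542 ± 0.041% in IFRCs, 0.76 ± 0.131% in TBRCs and 0.8 ± 0.113% in MedRCs. Igfbp5 made up 26.1 ± 3.49% of the pool in FDCs and 18.5 ± 1.13% in MRCs, and 7.97 ± 1.97%, 10.1 ± 2.65% and 10.2 ± 2.43% in IFRCs, TBRCs and MedRCs. The ratio of Igfbp5 to Igfbp4 UMIs ran from 1.45 to 3.82 over the libraries of FDCs and from 1.27 to 6.54 in MRCs. It ran from 0.413 to 0.775 in IFRCs, from 0.42 to 0.636 in TBRCs and from 0.543 to 0.682 in MedRCs, so that every library of the follicular types was above 1 and every library of the others below. The value of 6.54 rests on 13 Igfbp4 UMIs. In FDCs with 1 Cr2 UMI, Igfbp5 was below Igfbp4 in the 2-IC libraries (893 against 1326 and 823 against 874 CPM). In the 1-IC library it was above (703 against 278 CPM), as it was in FDCs with more Cr2 in every library. The pool held 31.0 ± 11.1 UMIs per Igf1 UMI in FDCs, 37.8 ± 14.8 in MedRCs and 64.7 ± 4.52 in IFRCs.

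Within the FDC gate the members split with the number of Cr2 UMIs in the cell, a division made after their levels were seen and given without a test. In cells with 1 Cr2 UMI (52, 7 and 8 cells) Igfbp4 was at 1326, 874 and 278 CPM, and in cells with 2 or more (58, 18 and 24 cells) at 149.6, 567 and 156 CPM. Igfbp3 was at 949.5, 823 and 736 CPM with 1 Cr2 UMI and 154, 628 and 166 CPM with more, and Igf1 at 201, 393 and 114.5 CPM and 43.0, 191 and 53.6 CPM. Igfbp7 was at 3825, 2001 and 2028 CPM with 1 Cr2 UMI and at 845, 1707 and 1117 CPM with more. For these 4 genes the cells with more Cr2 were lower in 3 of 3 libraries. Igfbp5 was at 893, 823 and 703 CPM with 1 Cr2 UMI and 832, 1328 and 702 CPM with more, with no common direction. In 2-IC replicate 2 a single FDC with 2 or more Cr2 UMIs held 161 of the 433 Igfbp5 UMIs of the gate. The level without that cell is not given. The depth moved with the split, with medians of 4882, 13430 and 7284 UMIs for cells with 1 Cr2 UMI and 7250, 14220 and 8832 UMIs for the others, and Ccl21a, a chemokine of T zone and border reticular cells, was at 6009, 76 and 1031 CPM with 1 Cr2 UMI and 909, 1188 and 424 CPM with more. The part of depth and of such cells in the difference was not tested.

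**Figure D3:**
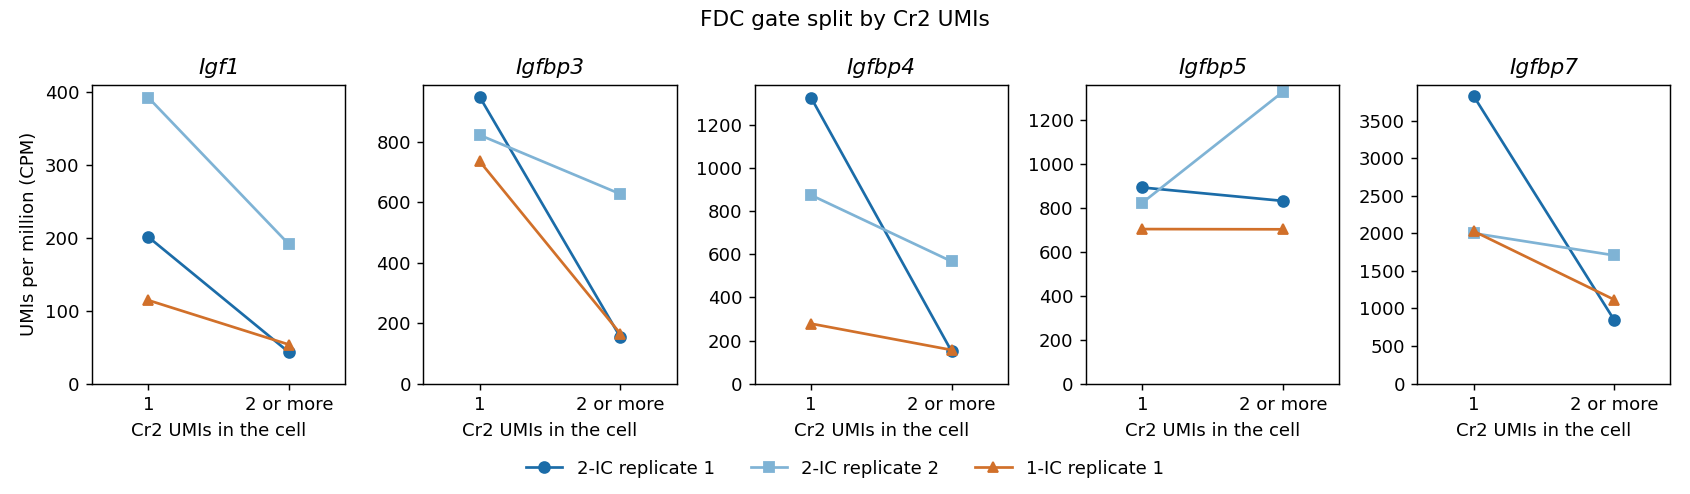
Level of the 5 tested members in CPM (vertical axes from 0) in cells of the FDC gate with 1 or with 2 or more Cr2 UMIs, a line for each library. Igf1, Igfbp3, Igfbp4 and Igfbp7 go down in all 3 libraries, and Igfbp5 goes up in 2-IC replicate 2, from 823 to 1328 CPM, where 1 cell held 161 of 433 UMIs.

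Transcripts of Igfbp4 were also unevenly spread over the FDCs of a library. The 10% of FDCs with the most Igfbp4 (11, 3 and 4 cells) held 59.0%, 57.1% and 77.6% of its UMIs, while the same number of the deepest cells held 23.1% to 24.1% of all UMIs. In the 1-IC library 1 FDC held 20 of the 49 UMIs. In MedRCs the corresponding shares of Igfbp4 were 34.1%, 41.3% and 30.0%, and in IFRCs and TBRCs at most 33.6%. In MRCs they were 57.5% and 41.6% in the 2-IC libraries, so the spread was not particular to FDCs. Nor was it particular to Igfbp4: in FDCs the shares of Igfbp3 were 57.9%, 60.7% and 83.5%, and those of Igfbp7 41.0%, 46.0% and 41.6%.

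Cr2-positive cells with little Malat1, a nuclear RNA that is scarce in cells that lost their nuclei, had lower levels of 3 of the 5 tested members than FDCs (17.1% of all genes called). Igf1 was at 49.7, 0 and 18.2 CPM in them and Igfbp4 at 327, 16.4 and 18.2 CPM, from 46, 1 and 1 UMIs. The differences were -2.11 ± 0.55 for Igf1 (log2 scale, adjusted p = 0.0102, edgeR), -1.61 ± 0.51 for Igfbp4 (adjusted p = 0.0317) and -1.24 ± 0.34 for Igfbp7 (adjusted p = 0.0141). The median over all genes in this comparison was -0.27. Without 2-IC replicate 2 the differences were -1.13, -0.92 and -0.72, and none was called (adjusted p = 0.168, 0.281 and 0.243). Without 2-IC replicate 1 they were -4.15, -4.57 and -2.13, where Igf1 and Igfbp4 had at most 1 UMI in each low-Malat1 sum, and without the 1-IC library the difference of Igfbp7 was -1.10 (adjusted p = 0.0507). For Igfbp3 the difference was -1.40 ± 0.49 and just missed the threshold, and 45 of its 56 UMIs in 2-IC replicate 1 were in 1 cell. Without that library the difference of Igfbp3 was -4.86 (adjusted p = 5.6e-05) and that of Igfbp5 -1.15 (adjusted p = 0.0337). With all libraries Igfbp5 was at 739, 787 and 164 CPM and differed by -0.77 ± 0.28 (adjusted p = 0.0602).

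Shares of cells with a transcript were compared at equal depth, since the median depth was 5791.5, 13706 and 8370.5 UMIs in FDCs and 3423, 5845 and 3141 UMIs in B cell barcodes. With each cell thinned to 2000 UMIs, a UMI of Igfbp4 was found in 35.4 ± 12.1% of FDCs, 42.2 ± 22.1% of MRCs, 65.5 ± 6.20% of IFRCs, 85.3 ± 4.21% of TBRCs and 85.2 ± 2.07% of MedRCs (SD, n = 3), against 4.43 ± 3.89% of B cell barcodes. Before thinning the share was 48.2 ± 10.8% of FDCs and 94.8 ± 1.95% of MedRCs. Igfbp7 was found in 74.8 ± 3.84% of thinned FDCs and 99.2 ± 1.41% of MedRCs, and in 15.7 ± 10.8% of B cell barcodes. Igf1 was found in 12.2 ± 4.80% of FDCs and 29.2 ± 6.10% of MedRCs, and in 1.45 ± 0.826% of B cell barcodes. For Igfbp5 the shares were 50.3 ± 8.74% of FDCs and 52.6 ± 5.79% of MedRCs, against 37.3 ± 8.67% of IFRCs. Thinning left out 22 of 167 FDCs and 59 of 633 MedRCs with fewer UMIs.

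**Figure D4:**
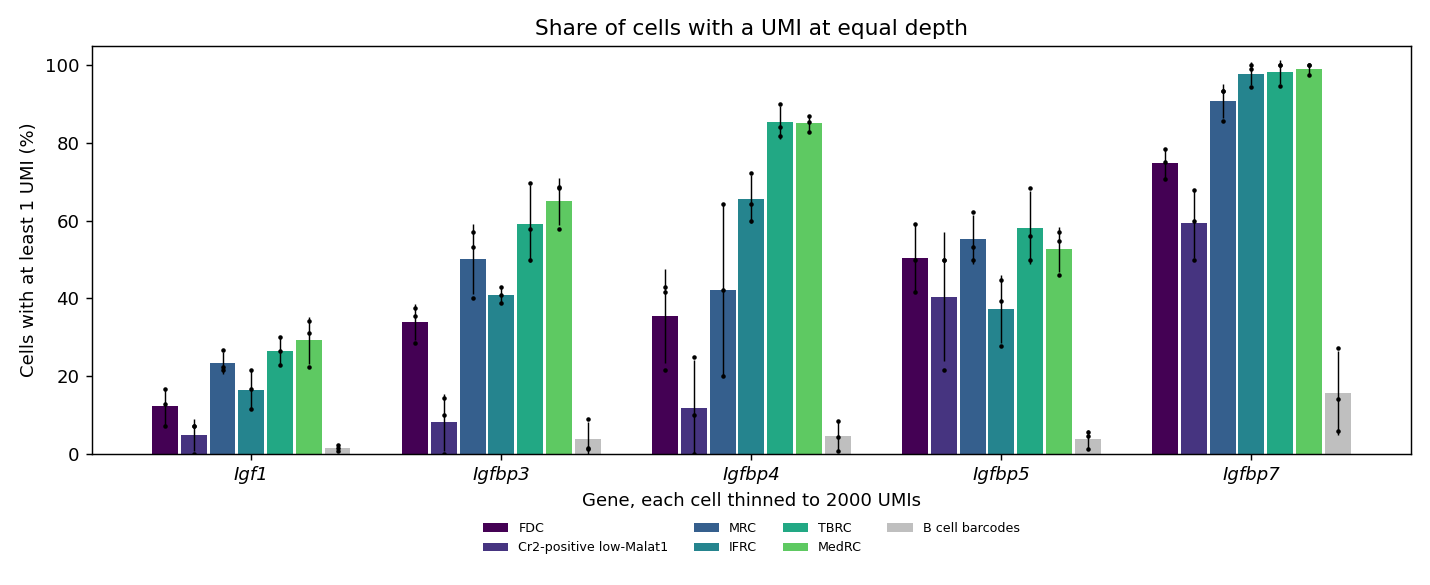
Percent of cells with at least 1 UMI of each tested member (vertical axis from 0) after each cell was thinned to 2000 UMIs. Bars are means over the 3 libraries, whiskers are the SD and dots are libraries. The bars of Igfbp4 go from 35.4% in FDCs to 85.2% in MedRCs, while those of Igfbp5 are near 50% in both.

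The 1-IC and 2-IC conditions could only be set side by side, as a single 1-IC library was analysed. Igfbp4 in FDCs was at 184 CPM in the 1-IC library, 0.313 times the level of 2-IC replicate 1 (counting interval 0.228 to 0.421) and 0.29 times that of 2-IC replicate 2 (0.208 to 0.396). In MRCs it was at 120.5 CPM, from 13 UMIs, 0.19 times (0.0993 to 0.332) and 0.184 times (0.0962 to 0.324) the levels of the 2-IC libraries. Among genes with enough counts, the 1-IC library was at least 2-fold below both 2-IC libraries in 6.68% in FDCs and 9.3% in MRCs. In the same types the 2-IC libraries were 2-fold or more apart from each other in 21.9% and 22.0% of genes. The make-up of the FDC gate also differed, with 1 Cr2 UMI in 52 of 110, 7 of 25 and 8 of 32 cells. Igfbp4 was at 1326, 874 and 278 CPM in these cells and at 149.6, 567 and 156 CPM in FDCs with more Cr2. A single FDC held 20 of the 49 Igfbp4 UMIs of the 1-IC library, which counting intervals do not cover. The part of this make-up was not tested. In MedRCs the Igfbp4 ratios were 0.858 and 1.03, and in TBRCs 0.691 and 0.77. Igfbp7 was higher in the 1-IC library than in both 2-IC libraries in MedRCs (ratios 1.35 and 1.66) and TBRCs (1.42 and 1.95) and lower than in both in FDCs (0.677 and 0.748). For Igfbp5 in MRCs the ratios were 0.977 (0.755 to 1.25) and 0.898 (0.691 to 1.16).

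Pappa and Igfals were picked for their called differences in FDCs, so their higher levels there in every library are a description and no support. Of 30 other genes of the pathway (growth hormone arm, receptors, relay, proteases and their inhibitors, further binding proteins), 23 passed the filter. In FDCs 3 of them (Pappa, Insr and Igfals) were called higher and 1 lower than in the other types (15.4% of all genes called). This count is close to the share over all genes and is not read as a result about the pathway. The calls of Pappa and Igfals are no support, since both passed the filter mainly through the Cr2-positive gates. Pappa, the protease that cuts IGFBP4 and IGFBP5, was at 66.7, 233 and 75.1 CPM in FDCs of the 3 libraries. It was at 10.1, 35.2 and 12.4 CPM in MedRCs, and at most 19.7 CPM in any library of MRCs, IFRCs and TBRCs. No fold or p is given for Pappa in FDCs, since it passed the filter on low counts mainly through this gate. Without thinning, a UMI of Pappa was found in 22 of 110, 10 of 25 and 10 of 32 FDCs, and in 18 of 461, 22 of 91 and 6 of 81 MedRCs. In 2-IC replicate 2 the counting intervals of these shares overlapped (21.1% to 61.3% in FDCs and 15.8% to 34.3% in MedRCs). With 2 or more Cr2 UMIs in the cell, Pappa was at 95.2, 289 and 87.8 CPM, and with 1 at 19.0, 38 and 32.7 CPM, so that the cells with more Cr2 were higher in 3 of 3 libraries. The cells with 1 Cr2 UMI held 263283, 78947 and 61130 UMIs of all genes. Their Pappa levels therefore rest on few UMIs, near the 3 counts that a count of 0 allows, and the split was not tested.

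Igfals, the acid-labile subunit, was at 68.1, 25.3 and 45.1 CPM in FDCs, from 69 UMIs in all, whereas the other 4 types together held 10 UMIs. A UMI was found in 28 of 110, 6 of 25 and 8 of 32 FDCs and in 3 of 461, 1 of 91 and 0 of 81 MedRCs. Igfals passed the filter on low counts only through the Cr2-positive gates, so that its call in FDCs is no support, and no fold or p is given. Igfals was also found in Cr2-positive low-Malat1 cells, at 99.5, 0 and 72.7 CPM. Insr, the insulin receptor, which can also bind IGF2, was at 38.3, 64.6 and 56.4 CPM in FDCs and was called higher there. Its FDC sums alone met the filter on low counts, and whether it passed through other gates was not tested. Its call is therefore no support, and no fold or p is given. Igf1r, the receptor of IGF1, was at 102 ± 14.8 CPM in FDCs and 93.1 ± 39.9 CPM in MedRCs, and edgeR called no type different from the mean of the other types.

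**Figure D5:**
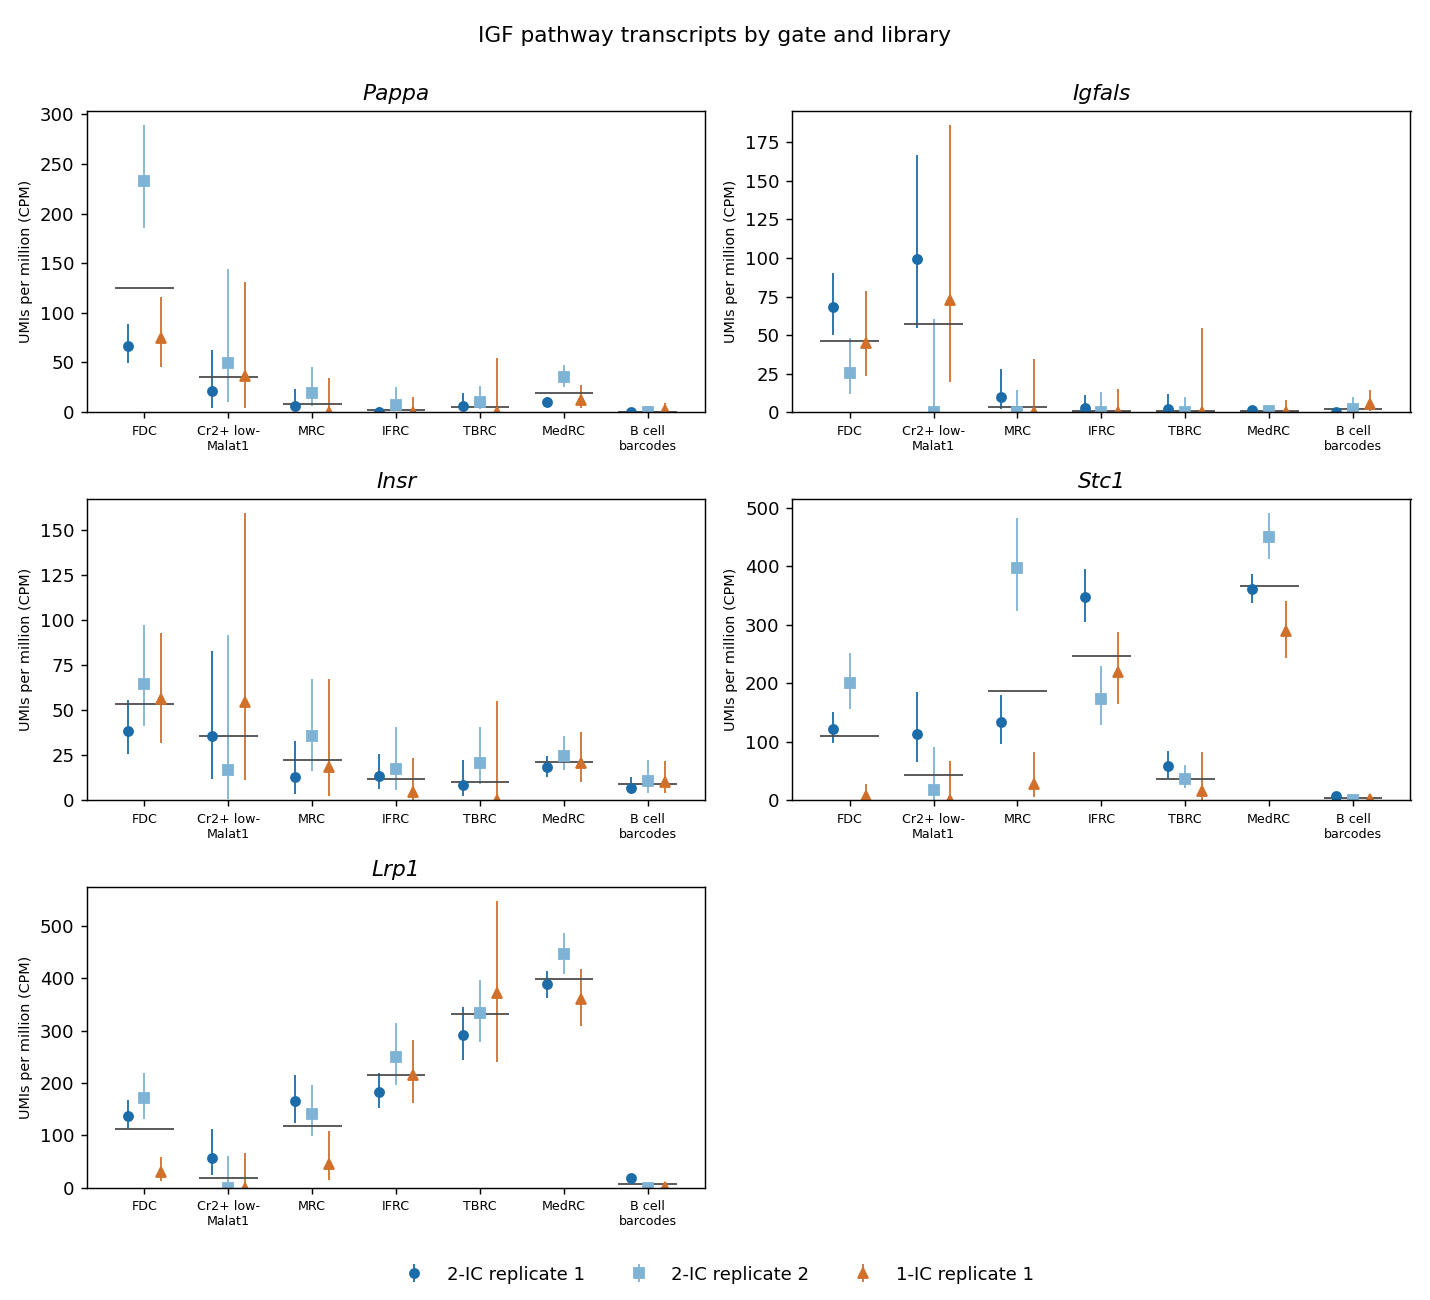
Level of Pappa, Igfals, Insr, Stc1 and Lrp1 in CPM (vertical axes from 0) by gate, with a point for each library, exact Poisson 95% intervals and grey means. Pappa is highest in FDCs in each library, and Stc1 and Lrp1 are at 289 to 450.3 CPM in MedRCs. The genes were picked for called differences between gates in these same libraries, so their order is a description.

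In MedRCs 6 of the 23 tested pathway genes were higher and none lower (13.1% of all genes called). Stc1, the inhibitor of PAPP-A, was at 361, 450.3 and 289 CPM in MedRCs and at 57.8, 36.0 and 14.8 CPM in TBRCs. It was higher in MedRCs than in the other types by 1.75 ± 0.33 on the log2 scale (adjusted p = 0.000492, edgeR) and lower in TBRCs, with a log2 fold change of -2.41 ± 0.53 (adjusted p = 0.0078), though not without 2-IC replicate 2 (-1.82, adjusted p = 0.0702). FDCs had 122, 199 and 7.51 CPM of Stc1, below MedRCs in each library. Lrp1, an endocytic receptor that binds IGFBP3, was at 389, 446 and 361 CPM in MedRCs and 138, 171 and 30.1 CPM in FDCs, with differences from the other types of 1.27 ± 0.22 (adjusted p = 0.000265) and -1.05 ± 0.28 (adjusted p = 0.0106). Foxo1, a transcription factor that AKT shuts off, was higher in MedRCs by 1.15 ± 0.31 (adjusted p = 0.0131), a call lost without 2-IC replicate 2 (adjusted p = 0.0719) or the 1-IC library (0.0783), and the relay genes Irs2, Pik3r1 and Grb10 by 0.80, 0.74 and 0.65. In IFRCs Pappa was called lower, from 2 UMIs over the 3 libraries, and the call was lost on leaving out any 1 library. In Cr2-positive low-Malat1 cells 4 of the 23 pathway genes were called lower than in FDCs and none higher (17.1% of all genes called). This count is close to the share over all genes and is not read as a result about the pathway. Among the 4 were Socs2 (-2.39 ± 0.66), Lrp1 (-1.98 ± 0.66) and Pappa. None of these 3 was called without 2-IC replicate 2 (edgeR adjusted p = 0.161 for Socs2 and 0.343 for Lrp1), nor Socs2 without 2-IC replicate 1 (adjusted p = 0.0639). In MRCs edgeR and DESeq2 each called 0 of the 23 pathway genes, with 2 at an unadjusted p under 0.05 in edgeR. In IFRCs DESeq2 called none, Pappa included. Pappa passed the filter on low counts mainly through FDCs, which enter its comparisons in IFRCs and in low-Malat1 cells. Its calls there are no support, and no fold or p is given.

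The genes whose pattern was most like that of a member were found by correlation over the 15 sums of the 5 types and 3 libraries, each centred on its library, which share depth and library and so carry no p. For Igf1 they were the transcription factors Klf7 (r = 0.95), Klf4 (0.854) and Rarg (0.84), and for Igfbp3 the phosphatase Dusp1 (0.922), Klf4 (0.884) and Apod (0.862). Igfbp4 was most like the chemokine Ccl11 (0.966), Gas6 (0.965) and Jun (0.962), and Igfbp7 most like Apoe (0.986) and the complement genes Serping1 (0.977) and C1ra (0.973). Igfbp5 was most like Ncoa2 (0.895), Cuedc1 (0.864) and Tvp23b (0.844). Among the members, the highest r was 0.839 between Igf1 and Igfbp3, followed by 0.836 between Igfbp4 and Igfbp7, and the r of Igfbp5 was 0.55 with Igf1, 0.409 with Igfbp3, -0.155 with Igfbp4 and -0.306 with Igfbp7.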

How the data were processed

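The authors aligned reads and counted UMIs with Cell Ranger (5.0.0 per the file headers) on GRCm38 with Ensembl annotation, and deposited raw counts per gene and barcode without normalization, 51912 genes in 3 libraries of 3790, 1029 and 667 barcodes. The titles placed both 2-IC libraries in 1 group, although their short descriptions differ (Biotin24h for replicate 1 and Biotin7d for replicate 2). What this difference stands for was not given in the sources used here, so these libraries may differ in more than replication. Barcodes with at least 200 genes, at most 10% mitochondrial UMIs and no count of 13 contaminant genes were kept (2243 of 5486). The contaminant filter took the FDC gate from 364, 128 and 102 barcodes to 110, 25 and 32. It took the MedRC gate from 772, 134 and 101 barcodes to 461, 91 and 81. Scrublet (scanpy 1.11.5) marked 1, 4 and 12 barcodes, too few to count as a working doublet caller, and they were left in. Gates used at least 1 UMI and excluded each other. Counts were summed per library and gate (18 sums, at least 5 cells each) and fitted in edgeR 4.0.16 (TMM, filterByExpr, quasi-likelihood test, library as block, Benjamini-Hochberg adjusted p under 0.05 over 6002 genes, R 4.3.3). DESeq2 1.42.0 was an alternative. The fit was tested on simulated counts. The block stands for the shared cell suspension. P-values measure how differences between gates vary over 3 pooled libraries, after the block has taken up what all gates of a library share. They are not adjusted over comparisons. Fold changes are on the log2 scale.

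B cell barcodes (Cd79a and Cd79b at least 1, Pdgfrb and Col1a2 at 0) gave the background. Shares have exact binomial and levels exact Poisson 95% intervals, which cover counting error only, and a count of 0 was taken to allow 3 counts. Libraries were compared among genes with at least 50 CPM. Correlations used log2(CPM + 10). The members and lists were chosen with earlier results of these data known. All 8 members are named, with up to 3 called pathway genes of largest change in each comparison and the 3 genes of highest correlation with each member. Igf1r, Irs2, Pik3r1 and Grb10, Lrp1 in FDCs and the split of FDCs by Cr2 were chosen after seeing the data. Promoters are from RefSeq (GRCm38.p6), matched by symbol for all 8 members, and positions from GENCODE M21.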

Additional observations from a re-analysis of the deposited data

Results flagged for a closer look

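The cells that the gates left out held UMIs of the members that were too rare to be tested, above the 3 counts that a count of 0 allows. Igfbp2 was at 49.5 and 23.6 CPM in ungated cells of 2-IC replicate 1 and 2, from 55 and 9 UMIs, and 1 cell held 38 of the 55. In double-gated cells Igfbp2 was at 6.39 and 9.99 CPM, Igf2 at 1.88 and 3.21 CPM and Igfbp6 at 4.89 and 2.14 CPM in the same libraries. Igfbp6 was at 4.5 CPM in ungated cells of 2-IC replicate 1.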

How the results depend on the processing

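No called difference of a member reversed under any of the 13 alternatives. Of 390 member values in the 6 main comparisons, 318 stayed on their side of the threshold, 40 lost a call and 32 gained one, and 18 uncalled values changed sign. Of the 11 member calls, the number still made was 11 without TMM, with no filter on low counts, with gates at 2 UMIs and without Scrublet doublets. It was 10 with the Malat1 limit in every gate and without shared barcodes (an alternative chosen after seeing the data), 8 with thinned cells, 6 in DESeq2, 4 with no contaminant filter and 1 with no replicate block. The cause of these losses was not tested. Leaving out a library gave 9 (2-IC replicate 1), 7 (2-IC replicate 2) and 3 (1-IC). Scrublet marked 0, 1 and 1 of the kept cells of the 2-IC libraries and the 1-IC library, so that leaving them out tests little.

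In the order FDC, MRC, IFRC, TBRC, MedRC and low-Malat1, the genes called without the replicate block were 474, 50, 1, 46, 244 and 357 (927, 127, 30, 185, 784 and 1029 with it), and the members called were 0, 0, 0, 0, 0 and 1 (2, 0, 1, 1, 4 and 3 with it). With thinned cells the genes called were 269, 75, 8, 59, 282 and 293. Leaving out a library gave 578 to 758, 79 to 92, 4 to 23, 82 to 135, 410 to 595 and 301 to 717 genes, and 1 to 2, 0 to 1, 0, 0 to 2, 1 to 4 and 0 to 5 members. The 1 member called in FDCs without the 1-IC library was Igfbp5, higher, and the 2 lower calls were lost. With no contaminant filter 6 members were tested, and in FDCs 1 was called higher and 1 lower. With gates at 2 UMIs 359 (MRC), 89 (IFRC) and 526 (TBRC) genes were called, with no filter on low counts 263, 131 and 314, in DESeq2 191 (MRC), and with no contaminant filter 1636 (FDC), 391 (MRC) and 1573 (low-Malat1). Members called in DESeq2 were 1 (FDC), 0 (TBRC), 1 (MedRC) and 5 (low-Malat1), with no filter on low counts 2 (MRC), 3 (IFRC), 3 (TBRC) and 5 (low-Malat1), and with gates at 2 UMIs 1 (MRC) and 4 (TBRC). They were 0 in IFRC and TBRC with no contaminant filter, 1 (MRC) and 0 (IFRC) with thinned cells, and 0 (TBRC) and 5 (low-Malat1) without shared barcodes. Small gates limit the depth: TBRCs of the 1-IC library were 10 cells and low-Malat1 cells of 2-IC replicate 2 were 10 cells.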
